A study of Mus musculus with 3 samples.

Results

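The histone acetylation and methylation enzymes measured here were 65 of the 55536 annotated mouse genes, and all 65 are among the 22028 protein-coding genes. They were taken by symbol, as the genes named Kdm, Kmt, Setd, Ezh, Hdac, Sirt or Kat with a protein-coding transcript, plus Ep300 and Crebbp. The rule used no measured value, but it was set with earlier results of these data known. RNA came from the chromatin fraction of C57BL/6J mouse macrophages grown from bone marrow in culture, and was sequenced after depletion of ribosomal RNA. There was 1 group of 3 libraries, and every library came from cells that had 100 ng/ml lipid A (the membrane anchor of bacterial lipopolysaccharide and a TLR4 agonist) for 12 h, then 12 h without it, then 100 ng/ml again for 30 min. Cells without lipid A, or with a single exposure, were not analysed here, and the levels therefore say nothing of induction or repression by it. The 3 libraries were labelled as biological replicates with separate biosamples but 1 shared donor identifier, so p-values measure only the spread between these samples, which may in part be technical. Input RNA was 1000 ng in replicate 1, 250 ng in replicate 2 and 500 ng in replicate 3. Effects of input and of replicate cannot be told apart. Sex and age were not collected, per the labels.

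Histone acetyltransferases place acetyl groups on lysines of histone tails, which loosens chromatin and recruits bromodomain proteins, and deacetylases remove them. Methyltransferases and demethylases write and erase methyl groups whose meaning depends on the lysine: H3K4 methylation marks promoters and enhancers, H3K36 methylation transcribed bodies, and H3K9, H3K27 and H4K20 methylation mostly silent chromatin. In macrophages these enzymes are known to help prime inflammatory enhancers and to take part in the altered response of cells that meet lipopolysaccharide again. Chromatin-fraction RNA is rich in transcripts still attached to their template, so it reads production of RNA more closely than whole-cell RNA does, and says nothing of protein or enzyme activity.

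Libraries held 12532722, 18395358 and 18237730 expected counts in replicates 1, 2 and 3, and the enzyme genes took 0.718%, 0.775% and 0.724% of the counts in annotated genes. Their summed TPM (transcript abundance corrected for length and scaled to a fixed sum) was 2165.2, 2194.8 and 2209.7. In the gene table all 8 macrophage markers were above 1 TPM, at means of 36.25 to 345.3 TPM. None of 22 markers of lymphoid, granulocyte, dendritic, stromal, epithelial or erythroid cells was called there. Their summed level was 2.66 to 5.03 TPM per library, and 7 of the 22 were at 0 in every library. A second transcript table of the same libraries called 6 of the 22: Pecam1 (9.935 TPM), Cd8a (2.627 TPM), Siglech (2.009 TPM), Zbtb46 (1.898 TPM), Col1a1 (1.803 TPM) and Mpo (1.736 TPM).

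Nearly all of the enzyme genes gave chromatin RNA. Of the 65, 61 were above 1 TPM (limma on log2(TPM + 0.1), one-sided, adjusted p under 0.05 over 24180 genes), beside 50.5% of all genes tested and 61.1% of protein-coding genes tested. With a floor of 5 TPM, 55 were called, beside 30.5% of all genes and 40.6% of protein-coding genes. The median of their mean levels was 25.73 TPM, against 4.168 TPM over the 15120 protein-coding genes tested and 12.35 TPM over the 9239 of those that were called, and 82.14% of protein-coding genes tested had a lower mean than the enzymes' median. Just 2 enzyme genes averaged above 100 TPM, 49 lay between 10 and 100 TPM, and 10 were called at a lower mean. In the order of mean level, 59 of 64 neighbours had overlapping ranges over the 3 libraries. The genes were sorted on these same values first, so overlap was likely and the count does not show that levels are continuous. The 5 steps without overlap were Kdm6a over Kmt2a, Kat6a over Kat2b, Kdm5b over Kdm8, Kdm8 over Hdac11 and Hdac11 over Kdm4d.

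**Figure D1:**
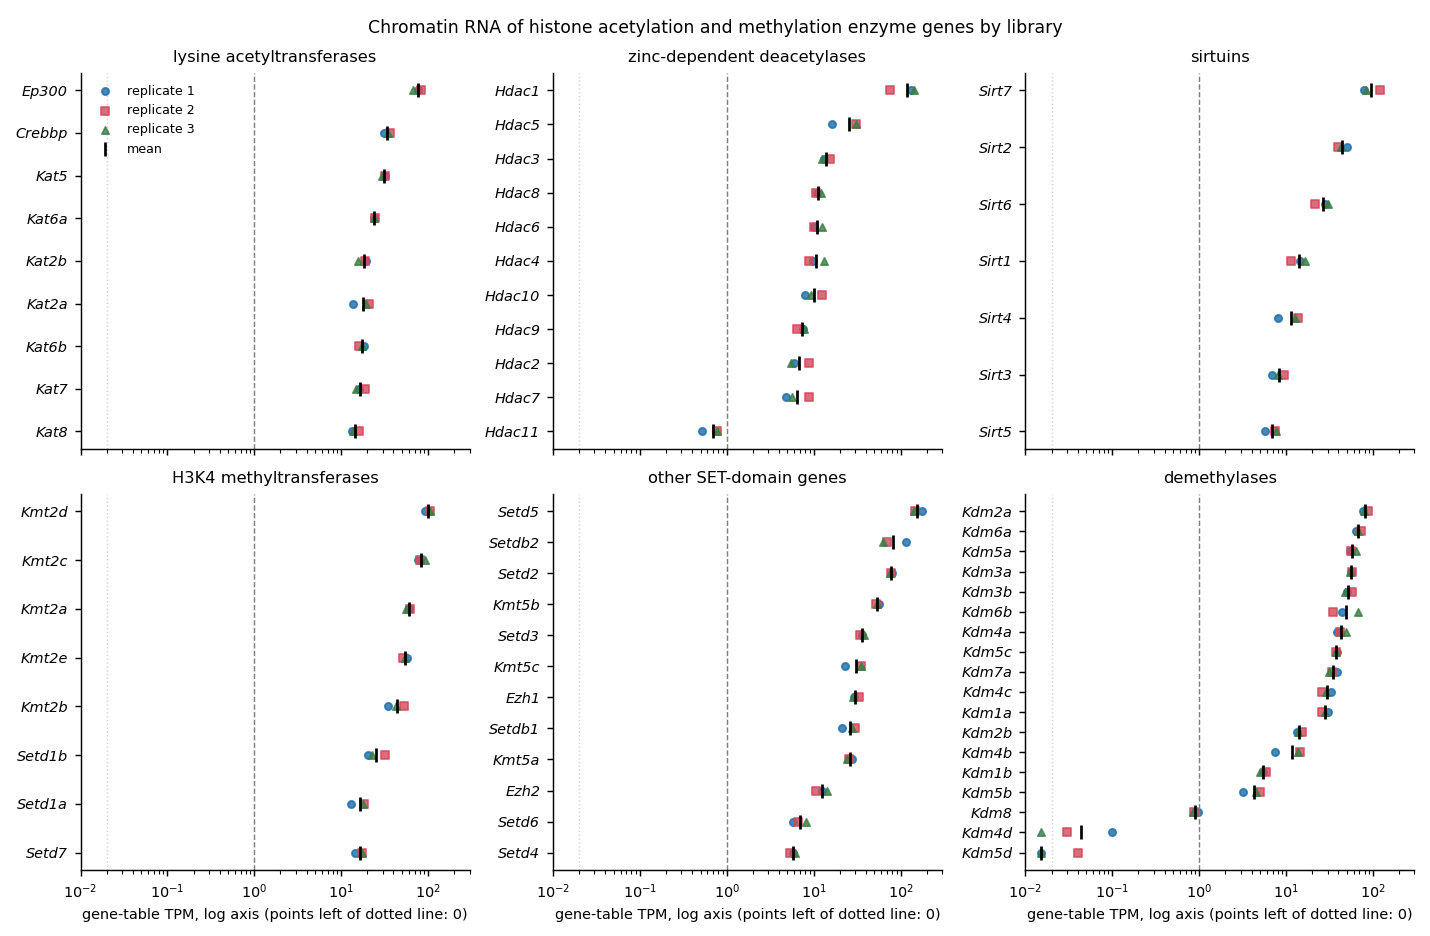
Gene-table TPM of the 65 genes on a log axis, in 6 panels by enzyme role, with 1 point per library and a black bar at the mean. The dashed line marks 1 TPM; 61 genes were called above it, and Kdm8, Hdac11, Kdm4d and Kdm5d were not.

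The sequence around the starts of these genes was mostly rich in CpG, the dinucleotide that marks broadly used promoters. Promoter windows of 300 bases, 250 before to 50 after a start, were in the RefSeq table (build GRCm38.p6, the mm10 assembly) for 53 of the 65 genes. The first listed window of each gene was taken, and whether its start is the one used in these cells was not tested. The enzyme windows held a median of 21 CpG and 60.67% GC, against 14 CpG and 57.0% GC in 16522 windows of protein-coding genes. Of the 53 windows, 6 lie more than 1000 bases from the annotated start of their gene, those of Sirt1 (42669 bases), Setd5 (27570), Kat6b (18336), Hdac4 (15358), Hdac7 (13007) and Kdm2b (1316). Without windows that far, a limit chosen after seeing the data, the medians were 20 CpG over 47 enzyme windows and 16 CpG over 14108 windows. The window of Kdm7a, a demethylase of H3K9 and H3K27, held 65 CpG, and it was the only one of the 16522 with the highest count. Hdac9, a class IIa deacetylase, and Kdm4c, an H3K9 and H3K36 demethylase, held 0, and the distant Setd5 window held 1. The sequences give the extremes, Kdm7a (chr6:39206724-39207023, minus strand) with every CG in capitals and Hdac9 (chr12:34917046-34917345, minus strand) with a kB-like match and TATAAA in capitals, both as the coding strand reads.
Kdm7a: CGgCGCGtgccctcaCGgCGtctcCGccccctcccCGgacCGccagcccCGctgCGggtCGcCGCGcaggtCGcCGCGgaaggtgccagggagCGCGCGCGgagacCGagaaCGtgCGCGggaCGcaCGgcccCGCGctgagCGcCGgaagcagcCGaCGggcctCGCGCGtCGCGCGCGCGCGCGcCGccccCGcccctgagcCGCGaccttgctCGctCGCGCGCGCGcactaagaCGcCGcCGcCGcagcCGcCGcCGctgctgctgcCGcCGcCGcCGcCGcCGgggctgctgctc
Hdac9: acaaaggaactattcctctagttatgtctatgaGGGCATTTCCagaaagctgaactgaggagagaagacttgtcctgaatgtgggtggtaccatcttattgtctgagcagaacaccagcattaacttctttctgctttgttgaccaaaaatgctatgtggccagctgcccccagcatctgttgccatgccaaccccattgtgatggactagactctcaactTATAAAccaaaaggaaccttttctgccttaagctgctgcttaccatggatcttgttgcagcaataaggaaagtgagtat
The window with the most CpG belonged to a gene at 38.36, 33.94 and 30.84 TPM, and the Hdac9 window to one at 7.48, 6.52 and 7.79 TPM in replicates 1, 2 and 3. Kdm4c, with no CpG in its window, had 32.75, 26.02 and 29.00 TPM, each above the enzymes' median.

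Both strands of the windows were searched for 5 short motifs, chosen after the levels were seen. A kB-like site (GGG, 2 bases of any kind, TTTCC) was in 2 of 53 windows (3.774%), those of Hdac9 and Setdb1, against 1.531% of all windows. The core of an interferon-response element (TTTC, 2 bases of any kind, TTTC) was in 1 (Kat5, 1.887%) against 3.468%. TATAAA was in 3 (Hdac8, Hdac9 and Kdm5d, 5.66%) against 12.86%. CCGGAAG, an ETS core, was in 11 (20.75%) against 12.27%, and GGGCGG, the GC box, in 30 (56.6%) against 48.0%. The kB-like and TATA matches of Hdac9 are the capitals in its sequence above. A match is a string of letters and not a measured binding site.

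All 9 lysine acetyltransferase genes were called above 1 TPM, with means of 14.36 to 75.74 TPM and a median of 18.07 TPM. Ep300, the gene of the enhancer coactivator p300, had 76.17, 83.66 and 67.39 TPM. Its paralog Crebbp, which encodes CBP, had 30.72, 36.35 and 35.00 TPM. The ranges did not overlap, and Ep300 was higher by 1.15 ± 0.19 on the log2(TPM + 0.1) scale (SD, n = 3, higher in 3 of 3 libraries). The difference was 0.93 ± 0.29 in the second table and 0.22 ± 0.05 over protein-coding transcripts, where the means were 32.46 and 28.00 TPM. With 3 libraries the exact sign-flip test cannot go below p = 0.25, and that was its value here and for every one of the 15 related pairs with 1 sign throughout (0.3167 after adjustment over the 19 pairs). Kat5, the TIP60 acetyltransferase of H4 and H2A, came next in this role in the gene table, at 32.29, 31.52 and 29.29 TPM. In the second table Kat2b (40.90 TPM), Kat6a (35.06 TPM) and Kat7 (30.70 TPM) were above Kat5 (28.58 TPM). Over protein-coding transcripts Kat6a (23.81 TPM) was above Kat5 (16.17 TPM).

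The GCN5 and PCAF genes, Kat2a and Kat2b, encode the acetyltransferases of SAGA-type complexes and had means of 18.0 ± 3.95 and 18.07 ± 2.04 TPM (SD, n = 3 each). Kat2a had 13.53, 21.03 and 19.44 TPM and Kat2b 19.45, 19.02 and 15.73 TPM. Their order differed between libraries: Kat2a was lower in replicate 1 and higher in the other 2. Without replicate 1 the difference turned positive, at 0.22 log2 units, and in the second transcript table it was -1.59 ± 0.58. The MYST genes Kat6a, Kat6b, Kat7 and Kat8 had means of 24.02, 17.21, 16.52 and 14.36 TPM, and Kat6a was above Kat6b by 0.48 ± 0.12 log2 units in 3 of 3 libraries.

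The zinc-dependent deacetylases ran lower, with a median of 10.61 TPM over 11 genes, 10 of them called, and Hdac1 stood far above the rest. Hdac1, a class I catalytic subunit of the Sin3, NuRD and CoREST corepressor complexes, had 132.82, 74.87 and 144.88 TPM. Its paralog Hdac2 had 5.92, 8.82 and 5.51 TPM. Even the lowest Hdac1 library was above every Hdac2 library, and the difference was 4.08 ± 0.88 log2 units, a ratio of 16.86. That ratio leans on one short transcript: Hdac1-206, annotated as retaining an intron, had 85.34, 30.58 and 94.57 TPM, and the protein-coding Hdac1-201 had 19.43, 17.15 and 27.82 TPM. Over protein-coding transcripts alone Hdac1 was still above Hdac2, by 2.39 log2 units. Hdac3, the subunit that the NCoR and SMRT corepressors activate, had 13.22, 15.39 and 12.64 TPM, and Hdac8 on the X chromosome had 10.95, 10.54 and 12.13 TPM.

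Among the class IIa deacetylases, which shuttle between nucleus and cytoplasm, Hdac5 was the highest. Hdac4 had 9.72, 8.83 and 13.28 TPM and Hdac5 had 16.27, 30.52 and 30.41 TPM, with no overlap. Hdac4 minus Hdac5 was -1.24 ± 0.52 log2 units in the gene table, -0.52 ± 0.59 in the second table and -0.17 over protein-coding transcripts. Hdac7 had 4.77, 8.95 and 5.57 TPM and Hdac9 7.48, 6.52 and 7.79 TPM, ranges that overlap. The order of Hdac7 and Hdac9 differed between libraries (-0.22 ± 0.59 log2 units). The class IIb genes Hdac6, a tubulin deacetylase, and Hdac10, a polyamine deacetylase, had means of 10.82 and 9.993 TPM. Hdac11, the class IV gene, had 0.52, 0.78 and 0.78 TPM and was not called (limma adjusted p = 1).

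The sirtuins are deacetylases that consume NAD, and all 7 were called, with a median of 14.22 TPM. Sirt7, a nucleolar H3K18 deacetylase, had 78.97, 119.51 and 83.88 TPM and stood apart from the other 6 in the gene table. Sirt2, largely cytoplasmic, had 49.73, 39.58 and 43.09 TPM, and Sirt6, an H3K9 deacetylase, had 28.42, 21.26 and 30.01 TPM. These 3 ranges did not overlap in the gene table. In the second table Sirt2 averaged 74.04 TPM and Sirt7 69.47 TPM. Over protein-coding transcripts Sirt7, Sirt2 and Sirt6 averaged 25.63, 22.27 and 19.80 TPM, with overlapping ranges. Sirt1, Sirt4, Sirt3 and Sirt5 followed with means of 14.22, 11.48, 8.197 and 6.963 TPM. The last 3 encode the mitochondrial members of the family.

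The 8 genes grouped here as H3K4 methyltransferases were Kmt2a, Kmt2b, Kmt2c, Kmt2d, Kmt2e, Setd1a, Setd1b and Setd7. The grouping is by name, and the activity of each product was not tested. They had the highest median of the 6 roles, 49.05 TPM, and all 8 were called with means of at least 16.28 TPM. Kmt2d and Kmt2c, whose products place monomethyl marks on enhancers, led them in the gene table. In the second table Kmt2e averaged 89.59 TPM, between Kmt2d (92.48 TPM) and Kmt2c (72.74 TPM), against 54.60 TPM in the gene table. Kmt2d had 91.50, 104.28 and 104.08 TPM, and Kmt2c 76.76, 81.63 and 92.18 TPM. Kmt2c lay below Kmt2d in each library (-0.26 ± 0.09 log2 units), although their ranges overlap. Kmt2a, the MLL1 gene, had 60.56, 61.93 and 56.13 TPM, and Kmt2b 34.95, 53.16 and 42.35 TPM, a difference of 0.47 ± 0.29 log2 units in 3 of 3 libraries. Setd1a and Setd1b, the catalytic subunits of the COMPASS complexes that trimethylate H3K4 at promoters, had means of 16.39 and 24.84 TPM. Setd1a was lower in each library (-0.59 ± 0.23 log2 units), but in the second table the difference was 0.17 ± 0.26.

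The other 12 SET-domain genes were all called, with a median of 30.73 TPM, and they include the highest gene of the set. Setd5, whose product associates with NCoR and HDAC3, had 175.83, 145.43 and 143.91 TPM and exceeded 1 TPM by 7.13 ± 0.11 log2 units (SE, n = 3; limma adjusted p = 5.28e-07). Setdb2, an H3K9 methyltransferase gene known in mouse macrophages as interferon-induced, had 114.20, 69.56 and 62.85 TPM. Setd2, which trimethylates H3K36, had 79.04, 77.13 and 76.04 TPM. Setd2 varied little, while replicate 1 stood above the other libraries for Setdb2. Setdb1, whose product trimethylates H3K9 at silenced retroelements, had 20.99, 30.21 and 27.83 TPM, so it lay below Setdb2 in 3 of 3 libraries. Setdb1 minus Setdb2 was -1.60 ± 0.72 log2 units, and the gap was widest in replicate 1, at -2.44.

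Ezh1 and Ezh2 encode alternative catalytic subunits of Polycomb repressive complex PRC2, which methylates H3K27, and Ezh2 is known as the form of dividing cells. Ezh1 had 28.77, 33.58 and 28.63 TPM and Ezh2 had 12.45, 10.75 and 14.29 TPM. The ranges did not overlap, and Ezh1 was higher by 1.28 ± 0.33 log2 units in the gene table, by 1.15 ± 0.20 in the second table and by 2.37 over protein-coding transcripts. Kmt5b, an H4K20 methyltransferase gene, had 55.94, 51.79 and 53.51 TPM, above its paralog Kmt5c with 22.80, 35.35 and 35.27 TPM (0.81 ± 0.41 log2 units, 3 of 3 libraries). The lowest of the role were Setd6 and Setd4, with means of 6.897 and 5.793 TPM.

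The 18 demethylase genes had a median of 31.82 TPM, and 15 were called. Kdm2a, an H3K36 demethylase gene, had 76.96, 88.15 and 78.68 TPM, and its paralog Kdm2b had 13.52, 15.32 and 13.82 TPM. The difference, 2.51 ± 0.01 log2 units, had the smallest spread of the 19 pairs. Kdm5a and Kdm5b remove H3K4 methylation. Kdm5a had 55.03, 55.23 and 62.99 TPM and Kdm5b 3.21, 5.03 and 4.45 TPM, which put Kdm5a 3.76 ± 0.32 log2 units higher. Kdm1a, the LSD1 gene, had 30.52, 26.12 and 27.97 TPM and Kdm1b 5.42, 5.81 and 4.95 TPM (2.37 ± 0.19 log2 units, but 0.48 ± 0.18 over protein-coding transcripts). In all of these pairs the first gene was above the second in every library. Dek, which overlaps Kdm1b by 505 bases on the opposite strand, averaged 49.41 TPM.

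The H3K27 demethylase genes Kdm6a (UTX) and Kdm6b (JMJD3) both gave abundant RNA. Kdm6b is known as an NF-kB target that lipopolysaccharide induces in macrophages. Kdm6a had 63.88, 72.89 and 67.36 TPM, and Kdm6b had 43.85, 35.09 and 67.43 TPM. The order was set by the library: Kdm6a was higher in replicates 1 and 2, while in replicate 3 the difference was -0.001 log2 units. The mean difference was 0.53 ± 0.53 log2 units, and 0.80 without replicate 3. Over protein-coding transcripts the mean difference turned to -0.10. Kdm6bos, an antisense gene that overlaps Kdm6b, had 11.13, 8.73 and 12.57 TPM, and how many reads the pair shares was not tested. Kdm3a and Kdm3b, which demethylate H3K9, had means of 55.69 and 51.83 TPM with mixed signs between libraries (0.11 ± 0.10 log2 units). The second table and the protein-coding transcripts gave -0.91 and -1.27. Kdm4a and Kdm4c had means of 43.07 and 29.26 TPM, with Kdm4a higher by 0.56 ± 0.29 log2 units in 3 of 3 libraries.

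Over the 19 pairs, 15 had the same gene higher in all 3 libraries. Of these, 8 differed by more than 1 log2 unit with both genes counted: Hdac1 and Hdac2, Kdm5a and Kdm5b, Kdm2a and Kdm2b, Kdm1a and Kdm1b, Setdb1 and Setdb2, Ezh1 and Ezh2, Hdac4 and Hdac5, and Ep300 and Crebbp. The other 4 pairs had mixed signs.

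The size of these gaps depended on which transcripts were counted. Of the 8, 6 still differed by more than 1 log2 unit in the second table and 5 over protein-coding transcripts, the exceptions being Hdac4 and Hdac5 and Ep300 and Crebbp in both, and Kdm1a and Kdm1b over protein-coding transcripts. Protein-coding transcripts gave a smaller gap for Kdm5a and Kdm5b (2.40 ± 0.38) and Setd1a and Setd1b (-0.08 ± 0.16). They gave a wider one for Kat6a and Kat6b (2.28 ± 0.24), Kmt2a and Kmt2b (1.15 ± 0.31), Kmt2c and Kmt2d (-0.65 ± 0.08), Setdb1 and Setdb2 (-2.50 ± 0.72) and Kmt5b and Kmt5c (1.24 ± 0.46). Hdac7 minus Hdac9 was -2.45 ± 0.56 and Kat2a minus Kat2b -1.11 ± 0.84 on that measure.

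**Figure D2:**
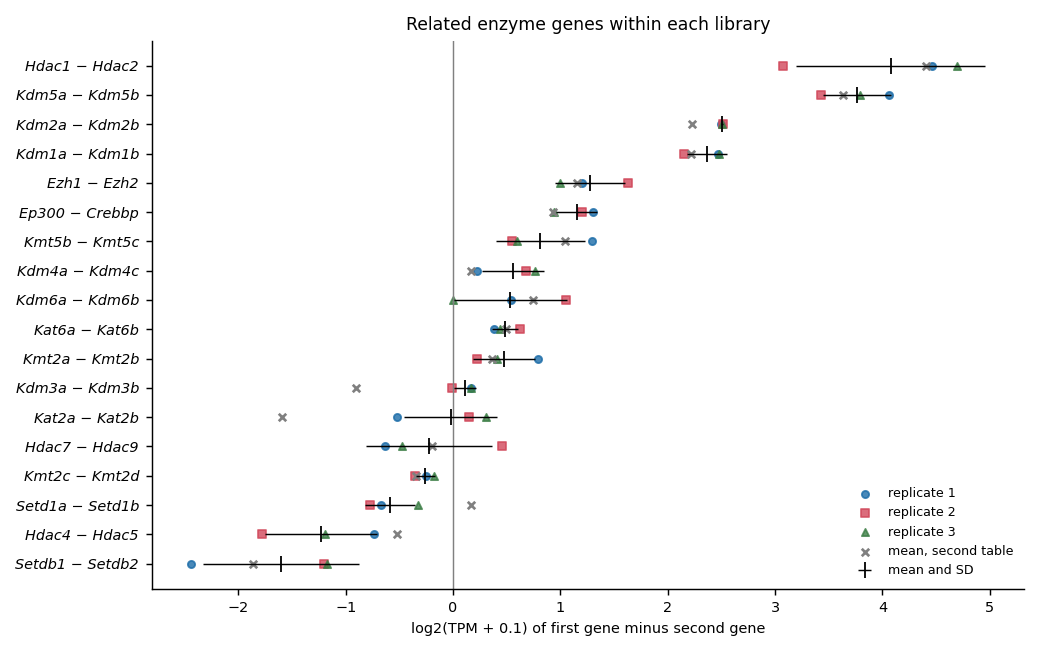
Difference on the log2(TPM + 0.1) scale between the genes of 18 related pairs, first minus second, with 1 point per library, the mean with SD over 3 libraries, and a cross for the mean in the second transcript table. Hdac1 minus Hdac2 is the widest gap at 4.08, and Kat2a minus Kat2b, Hdac7 minus Hdac9, Kdm3a minus Kdm3b and Kdm6a minus Kdm6b have points on both sides of 0. Kdm5c minus Kdm5d is not drawn, since Kdm5d had 1 count.

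The 4 genes not called were Kdm8, Hdac11, Kdm4d and Kdm5d. Kdm8, a JmjC-domain gene, had 0.98, 0.86 and 0.85 TPM (limma adjusted p = 1) and 1.908 TPM in the second table, where it passed (limma adjusted p = 0.00485). Kdm4d had 3 counts in all, 0.10, 0.03 and 0 TPM, with an exact Poisson 95% interval of 0.00677 to 0.0960 TPM for counting error only. Kdm5d, the Y-linked H3K4 demethylase gene, had 1 count in all, 0, 0.04 and 0 TPM, with an interval of 0.000222 to 0.0488 TPM. Its X-linked paralog Kdm5c had 38.35, 37.75 and 37.17 TPM, with the lowest coefficient of variation of TPM among the 65, 1.56%.

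The second transcript table, which has the layout of another tool, gave another value for Kdm5d: 7.33, 6.02 and 5.75 TPM, and there it was above 1 TPM (limma adjusted p = 4.28e-05). Of the 65 enzymes, 63 were called there, beside 57.1% of all genes tested and 65.1% of protein-coding genes tested. Of the other Y-linked genes looked at, Uty averaged 12.11 TPM, Ddx3y 1.374 TPM and Eif2s3y 0.777 TPM in that table, and all 3 were at 0 in every library of the gene table. Xist, the RNA of the inactive X chromosome, had 1156, 1096 and 1109 TPM in the gene table. Of the 31-letter words in the protein-coding transcript Kdm5d-201, 0.0632% also occur in Kdm5c transcripts and 10.02% in a transcript of any other gene. In the other Kdm5d transcripts the share found in any other gene was lower, from 0% to 2.209%. Kdm5d-201 averaged 1.782 TPM in the second table, and Kdm5d-206, with 0.8788% of its words shared, averaged 1.835 TPM. The part of shared words in the second-table value was not tested.

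Chromatin RNA holds unspliced and partly spliced transcripts, and the annotation types some transcripts as retaining an intron. Their median share of a gene's expected counts was 26.3% over the 50 enzyme genes with a value, against 27.77% over 6835 protein-coding genes. A share over 50% occurred in 15 of the 50, against 27.53% of genes. So the enzymes were near the background. Among themselves they differed widely, with Kat2b at 0.7175% and Kdm1b at 1.317% at the low end. The 5 highest were Sirt3 (77.24%), Hdac7 (76.31%), Sirt7 (76.04%), Hdac10 (70.49%) and Setd4 (67.93%). The second table gave these 5 shares of 66.69%, 66.88%, 80.03%, 66.68% and 69.70% in the same order, and its 5 highest were Sirt7, Hdac6 (71.90%, against 36.35% in the gene table), Sirt4 (70.05%), Setd4 and Hdac7. For 11 of the 50 genes the share differed more than 1.5-fold between the tables, Kat2b (6.607% in the second table) and Kdm1b (3.060%) among them. Of the 65 genes, 14 have no such transcript annotated, so the medians by role rest on part of some roles. They were 37.79% for sirtuins (7 of 7 genes), 36.35% for zinc-dependent deacetylases (11 of 11) and 33.69% for acetyltransferases (6 of 9). Demethylases had 26.93% (10 of 18), the other SET-domain genes 25.70% (11 of 12) and H3K4 methyltransferases 9.445% (5 of 8). Sirt3 overlaps Ric8a and Psmd13 on the opposite strand, which averaged 25.43 and 23.66 TPM against its own 8.197 TPM, and Hdac7 overlaps Slc48a1 by 29 bases, at 12.40 TPM.

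**Figure D3:**
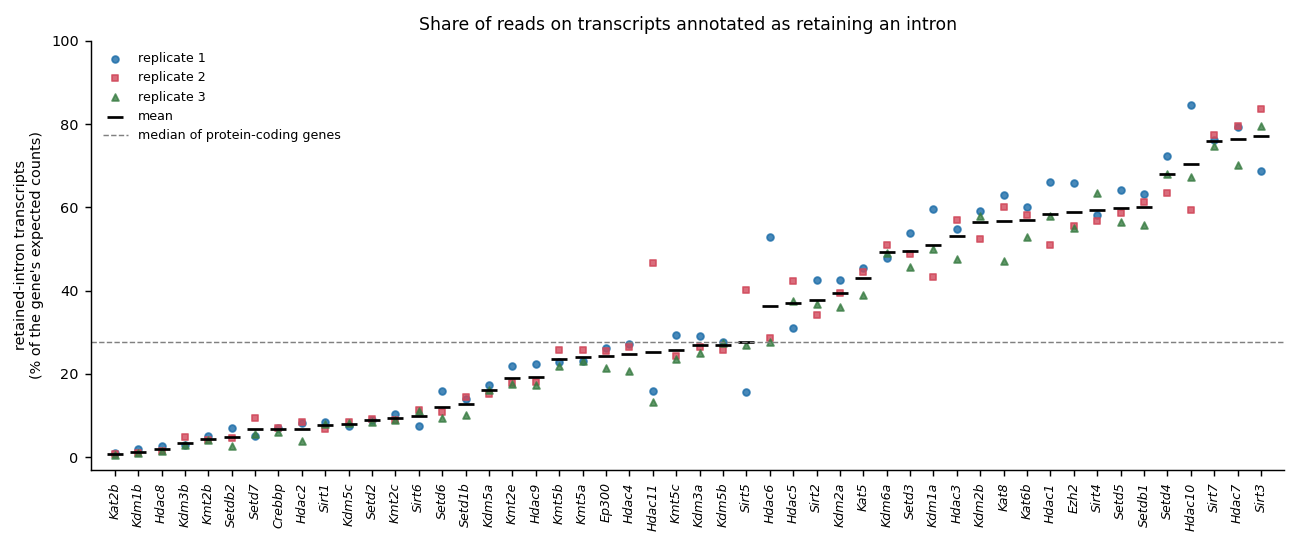
Share of each gene's expected counts, in percent, on transcripts annotated as retaining an intron, for the 50 enzyme genes with a value, ordered by mean, with 1 point per library and a bar at the mean. The dashed line is the median of 6835 protein-coding genes, 27.77%; the enzymes run from Kat2b at 0.7175% to Sirt3 at 77.24%.

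Which transcripts carried the level mattered for the order of the genes. The transcript with the most counts was protein-coding for 48 of the 65 genes and a retained-intron form for 14. For the other 3 it was Kat2a-204 or Hdac8-202, both processed transcripts, or Sirt1-205, a substrate of nonsense-mediated decay. Protein-coding transcripts held a median of 50.47% of the enzymes' TPM, against 55.09% over protein-coding genes called, and 31 of the 65 had less than 50%. The share is of TPM, in which short transcripts weigh more per read than in counts. The second table gave a median share of 39.67%.

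On protein-coding TPM, Setd5 had 31.34, 31.22 and 33.90 TPM, 20.74% of its total, and took place 8 of 65, against place 1 over all transcripts. Hdac1 took place 22, at 21.47 ± 5.62 TPM, against place 2 over all transcripts, and Sirt7 place 17, at 25.63 ± 6.09 TPM, against place 4 (SD, n = 3 each). The first 5 places then belonged to methyltransferase genes. Kmt2d came first with 91.50, 104.30 and 104.10 TPM, 100% of its total, followed by Kmt2c (63.89 TPM), Setdb2 (58.31 TPM), Kmt2a (54.28 TPM) and Setd2 (42.58 TPM). No retained-intron form is annotated for Kmt2d or Kmt2a, against 7 for Setd5 and 6 each for Hdac1 and Sirt7. Kmt2d-201, with 96.35% of the gene's counts, averaged 62.70 TPM. Kmt2d-203 and Kmt2d-204 added 23.95 and 11.94 TPM on 0.9382% and 0.5762% of the counts. The second table gave Kmt2d a protein-coding share of 93.42%. Sirt4 kept 6.388% of its level, at 0.57, 0.96 and 0.67 TPM, and was no longer above 1 TPM (limma adjusted p = 1), and Hdac10 had 0, 3.06 and 2.51 TPM and was not called either. In all, 58 of the 65 genes were called on this measure, beside 56.4% of all genes tested and 56.5% of protein-coding genes tested.

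The 2 quantifications of whole genes were close for most enzymes. The second table was higher by a median of 0.27 log2 units over the 61 called enzymes, against 0.34 over 9239 protein-coding genes, and 14 of the 61 were lower there. More than a 2-fold excess occurred for 6, against 15.52% of genes. These were Sirt5 (4.168-fold), Kdm4b (3.397-fold), Kdm3b (2.528-fold), Sirt1 (2.348-fold), Kat2b (2.264-fold) and Hdac4 (2.074-fold).

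**Figure D4:**
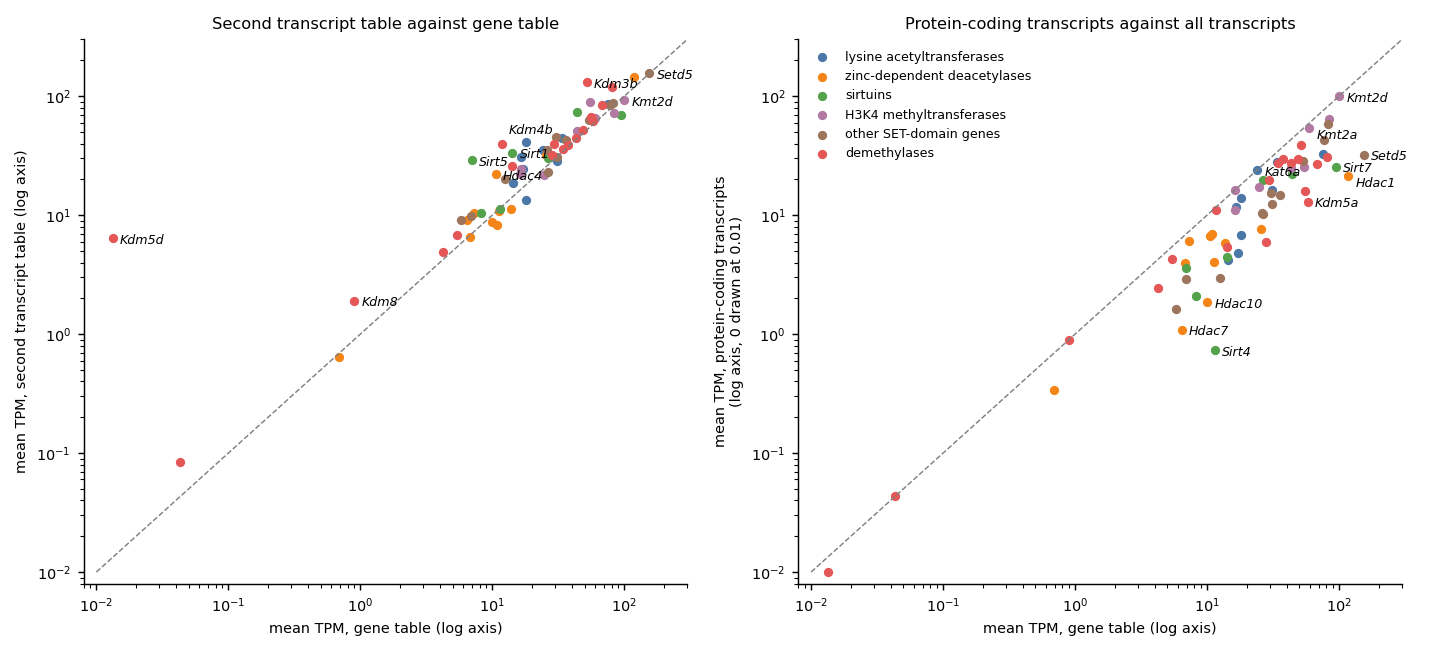
Mean TPM of each enzyme gene on log axes, coloured by role. The left panel sets the second transcript table against the gene table, with Kdm5d (6.367 TPM in the second table) far off the dashed line of equality; the right panel sets protein-coding transcripts against all transcripts, with Hdac1, Setd5 and Sirt4 well below the line.

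The enzyme genes had a slightly lower median spread between libraries than genes in general. The biological coefficient of variation, edgeR's estimate of spread beyond counting error, had a median of 0.1789 over 62 enzyme genes, against 0.2099 over 14140 genes kept and 0.2011 over protein-coding genes kept. Of the 62, 55 were below the median of all genes. The part that their higher level plays in this was not tested. The lowest values were those of Kdm2b (0.157), Kat7 (0.158) and Ezh1 (0.161), and the highest those of Kdm6b (0.252), Hdac1 (0.244) and Setd4 (0.241). Without replicate 3 the median was 0.2249, against 0.2446 over all genes.

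**Figure D5:**
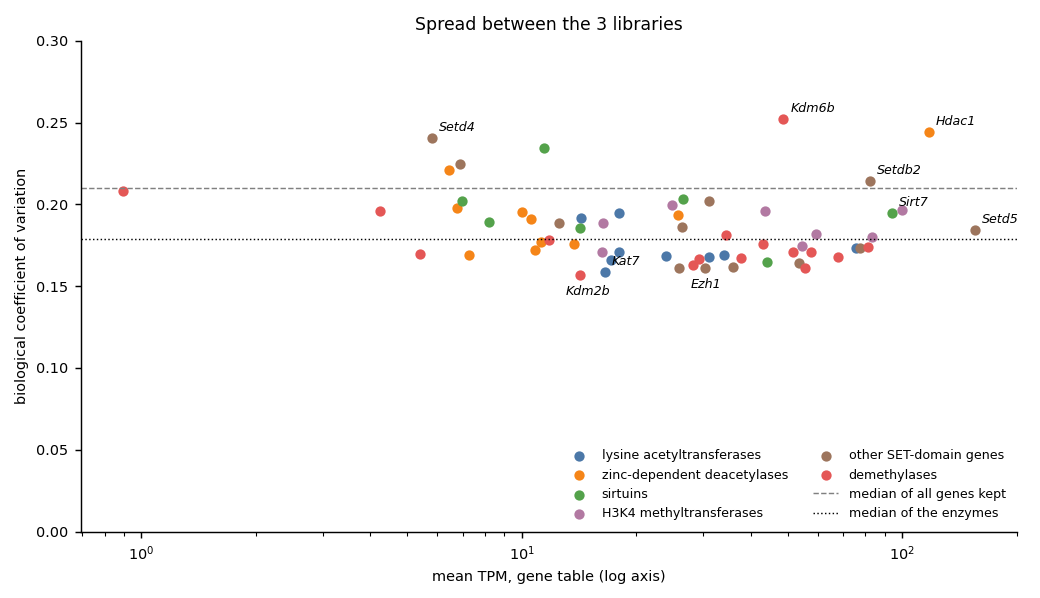
Biological coefficient of variation between the 3 libraries against mean TPM (log axis) for 62 enzyme genes, coloured by role. The enzymes' median, 0.1789 (dotted), lies under that of all genes kept, 0.2099 (dashed), and Kdm6b, Hdac1 and Setd4 are the highest.

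Replicate 1 differed from the other libraries in a way that followed base composition. Across 62 enzyme genes, GC content of the longest coding transcript and the gene's deviation in replicate 1 (log2 CPM minus the mean of the other libraries) had a Spearman rho of -0.58, and rho was -0.32 across 10820 protein-coding genes. In replicates 2 and 3 rho was 0.41 and 0.30 across the enzymes, against 0.23 and 0.09 across the 10820 genes. Each deviation is taken against the mean of the other libraries, so the values of the 3 replicates are not independent. These are correlations across genes that share their libraries, so they carry no p-value. Kmt5c (59.99% GC), Hdac5 (58.8%) and Kat2a (57.7%) had deviations of -0.58, -0.54 and -0.54 in replicate 1, and Setdb2 (42.6%) had 0.62. Not every gene followed the trend: Sirt6 (58.4%) had 0.33 and Kdm5b (47.6%) had -0.47. Pair differences that involve Kmt5c, Hdac5, Kat2a or Setdb2 moved with their deviations. In replicate 1, Kmt5b minus Kmt5c was 1.29 log2 units, against 0.55 and 0.60 in replicates 2 and 3, and Kat2a minus Kat2b was -0.52, against 0.14 and 0.30. The cause of the pattern was not tested.

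The partners of these enzymes were also mostly present. Of 49 other histone-modifying enzymes and complex subunits, 47 were called above 1 TPM (limma, against the same 50.5% of all genes), with a median of 18.63 TPM. The highest were Brd2, a bromodomain reader of acetylated H4, with 308.81, 222.67 and 325.19 TPM, Ncor1, the corepressor that holds Hdac3, with 218.23, 202.02 and 203.12 TPM, and Jmjd1c, a JmjC-domain gene, with 209.86, 190.21 and 197.37 TPM. Each was above every enzyme gene of the set in the mean. Dpy30, a subunit shared by the H3K4 methyltransferase complexes, had 0.36, 2.25 and 1.71 TPM and was not called (limma adjusted p = 0.657). Uty, the Y-linked paralog of Kdm6a, was at 0 in the gene table. In the second table Uty averaged 12.11 TPM, and 48 of the 49 partners were called, beside 57.1% of all genes tested.

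The enzyme genes were longer than most and had more annotated forms. Their median span was 41.78 kb with 8 annotated transcripts, against 22.16 kb and 5 transcripts over the protein-coding genes tested. A gene on the opposite strand overlapped 30 of the 65, and for 21 it had at least 0.1 of the enzyme's level. Setdb1 overlaps Cers2 (71.55 TPM) by 75 bases, and Kmt2e overlaps Srpk2 (51.05 TPM) by 972 bases. Whether reads were counted by strand is not given in the sources used here, so the levels of these genes are uncertain by an unknown amount.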

How the data were processed

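Chromatin-fraction total RNA was sequenced in 3 libraries of 1 group. Expected counts and TPM in the gene and first transcript tables were deposited by the authors in the layout RSEM writes, per the file headers. Estimated counts and TPM in the second transcript table follow kallisto's layout, per the file headers. The deposited text files give assembly mm10 and annotation release M21. For the aligner, the tool versions and the strand setting: not given in the sources used here. Non-gene rows (phiX, 96 ERCC and 26248 numbered rows) held 1.045%, 0.425% and 0.401% of counts and were left out.

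Levels were tested with limma 3.58.1 (intercept only, trend, log2(TPM + 0.1), one-sided against 1 TPM, Benjamini-Hochberg over 24180 genes, threshold 0.05). In simulated data, 2% of 50 genes at 1 TPM, 78% at 2 TPM and 100% at 4 TPM were called over 22369 genes. Every simulated gene had the same biological coefficient of variation, higher than the median of 0.2099 over genes kept here. Error in assigning reads to transcripts was not simulated, so these shares hold for that setting only. A fold on this scale understates differences of low genes. Spread came from edgeR 4.0.16 on rounded expected counts with TMM and filterByExpr. Retained-intron shares needed a mean of 10 expected counts. The 19 related pairs used a two-sided exact sign-flip test. Intervals and floors cover counting error only, as molecules were not marked. No value columns were left unassigned. Work was done in R 4.3.3 and python 3.11.15 (matplotlib 3.10.9, pandas 2.3.3, numpy 2.4.6, scipy 1.17.1).

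Genes named were the 3 highest of each role, genes not called, the 3 lowest and highest spreads, the 5 highest retained-intron shares and both genes of each pair. Others singled out were chosen after their values were seen. The members, lists and motifs were chosen with earlier results of these data known. Promoter sequences are from RefSeq; 12 genes had no matching window.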

Additional observations from a re-analysis of the deposited data

Results flagged for a closer look

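Kdm5d was marked for a closer look because a signal for it appeared in the second transcript table, outside the gene table on which the levels mainly rest. Its mean was 6.367 TPM there, against 1 count over all libraries in the gene table. No control samples were analysed here. The value is above the upper end of the exact Poisson 95% interval of that 1 count, 0.0488 TPM, and above 0.0263 TPM, the level of 3 counts over the group. That interval covers counting error within the gene table only, so it cannot judge a value from another quantification. Kdm5d was positive in 3 of 3 libraries of the second table. Y-linked Uty averaged 12.11 TPM there, while Uty, Ddx3y and Eif2s3y were at 0 in every library of the gene table. Which of the 2 Kdm5d values holds was not tested.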

How the results depend on the processing

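The count of genes above 1 TPM was 12220, with 7384 at a floor of 5 TPM, 19624 in the second transcript table and 11708 to 11907 with a replicate left out. The median of the enzymes was 25.73 TPM, 32.3 TPM in the second table, 12.4 TPM over protein-coding transcripts (an alternative chosen after seeing the data) and 23.82 to 25.64 TPM with a replicate left out. The median retained-intron share was 31.37% in the second table and 25.17% to 27.27% with a replicate left out, and the median spread 0.1521 to 0.2249. Of 581 alternative values of single enzyme levels, 570 kept their direction and side of the threshold. At a floor of 5 TPM, Setd6, Hdac2, Kdm1b, Hdac7 and Setd4 missed the threshold and Kdm5b turned to -0.26 log2 units from that floor. In the second table Kdm8 turned to 0.87 and Kdm5d to 2.55 log2 units above the floor. Over protein-coding transcripts Hdac7 missed the threshold, Sirt4 turned to -0.43 and Hdac10 to -0.23. Of 114 alternative pair differences, 109 kept their direction. Kat2a minus Kat2b was -0.19 to 0.22 with a replicate left out, Setd1a minus Setd1b was 0.17 and Kdm3a minus Kdm3b -0.91 in the second table, and over protein-coding transcripts Kdm3a minus Kdm3b was -1.27 and Kdm6a minus Kdm6b -0.10. The causes were not tested. No paired analysis was possible because there was 1 group. At this depth the counting intervals of Kdm4d and Kdm5d ended at 0.0960 and 0.0488 TPM, both below the 1 TPM floor.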
